A study of Ovis aries with 18 samples.

Results

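IGF2, IGF2R and GRB10 are imprinted growth genes, and this account follows the reads of their reference and alternate alleles in the perirenal adipose tissue of 18 fetal sheep. Every SNP that the deposited table assigned to one of these genes was taken, which gave 12 of 24355 SNPs and 3 of 5810 genes. IGF2 held 4 SNPs, IGF2R 5 and GRB10 3. The animals were pure bred Merino singleton fetuses, 16 female and 2 male (RS903 and RS918), taken at day 132 of gestation. All were wild type and untreated, their dams were unrelated ewes fed at maintenance, and they shared a common sire, so the 18 animals formed a single group. RNA of each fetus was sequenced as 1 library, and reads were counted per allele at each SNP, without normalization. At this age the perirenal depot of sheep is brown adipose tissue, and reads of UCP1, the uncoupling protein of brown fat, reached a median of 3120 per 1000000 SNP reads (reads summed over all SNPs of the animal) at its most covered SNP.

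An imprinted gene is expressed mainly from the copy inherited from the parent of one sex, and the other copy is silenced by marks set in the germ line. IGF2 encodes insulin-like growth factor 2, a fetal growth factor expressed from the paternal copy. IGF2R encodes the mannose 6-phosphate receptor that takes IGF2 to the lysosome for breakdown, and in sheep it is expressed mainly from the maternal copy. GRB10 encodes an adaptor protein that restrains signalling by the insulin and IGF1 receptors, and in most mouse tissues it is expressed from the maternal copy. A gene that follows parent of origin can show either allele as the higher one, depending on which parent transmitted it. A sequence variant acting in cis favours its own copy, and the marker allele that is higher can then also differ between animals where the marker and the variant are not fully linked.

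The values given at each SNP are the reference share, in percent of the reads of an animal called heterozygous (0/1), and the lower-allele share, which is the percentage of reads with whichever allele had fewer reads in that animal. All positions are on the Oar v3.1 assembly, and SNPs are numbered in coordinate order within each gene. The reads over all SNPs ranged from 2970824 to 5334585 per animal. Pairs of animals had between 43.6% and 63.5% equal genotype calls, so no library appeared more than once. RS929, labelled female, was heterozygous at 29.1% of X-linked SNPs, beside 25.4% and 32.4% in the males and 54.1% to 69.7% in the other females. The SNP filter required 10 reads of both alleles in at least 5 animals. A SNP with a silent copy in every animal therefore could not appear in the table. At a SNP that passed, an animal with a silent copy could appear as homozygous.

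IGF2R showed the strongest imbalance of the 3 genes, and it did so in either direction. In the 11 animals heterozygous at any of its SNPs, the lower allele held 12.7% ± 2.31 of reads (SD, n = 11), and the animals ranged from 8.76% in RS903 through a median of 12.5% to 16.7% in RS937. All 34 animal values lay between 7.69% and 18.9%, and the 95% Wilson interval of each one, which covers counting error only, left out 50%. The number of reads behind each value was between 58 and 230. Over all 24106 SNPs heterozygous in at least 5 animals, the median of the mean lower-allele share was 42.9%, with quartiles of 40.4% and 44.8%.

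The 5 SNPs of IGF2R lie on chromosome 8 within 38666 bp. SNP 1 is a synonymous C/T change at position 82910382, and SNP 2 a synonymous C/T change at 82911961. SNP 3 is a synonymous T/C change at 82922077, and SNP 4 a synonymous C/T change at 82936815. SNP 5, at 82949048, is a missense A/G change. The first base of each pair is the reference allele.

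At SNP 2 the reference allele was the lower one in all 7 heterozygous animals, with 7.75% in RS918 as the lowest value, a median of 12.4% and 16.1% in RS926 as the highest. Their mean was 12.2% ± 3.08 (SD, n = 7, exact two-sided permutation test against 50% by flipping signs, p = 0.0156, the smallest it allows). At SNP 3 the reference allele was the higher one in all 8, from 81.1% in RS937 through a median of 86.4% to 91.3% in RS940 (mean 86.3% ± 3.91, SD, n = 8, exact p = 0.0078, the smallest possible). SNP 4 had 5 heterozygous animals, with a reference share of 9.86% in RS929, 11.3% in RS953, 14.3% in RS918, 16.7% in RS902 and 16.7% in RS940. All 5 lay far below an equal share, but 5 animals cannot give an exact permutation p under 0.0625.

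SNP 1 and SNP 5 pointed in opposite directions in different animals. At SNP 1 the reference allele held 84.1%, 85.5%, 87.1%, 87.4% and 92.3% of reads in RS943, RS929, RS926, RS918 and RS903, and 11.3% in RS920. At SNP 5 it was the higher allele in 6 animals, with 81.2% in RS937 the lowest of them and 90.6% in RS920 the highest, and the lower one in RS903 at 9.83% and RS943 at 12.1%. The lower-allele share at these SNPs was as tight as at the others, at 12.5% ± 2.84 (SD, n = 6) and 12.2% ± 3.08 (SD, n = 8). The mean reference share, which averages over both directions, was 74.6% ± 31.2 and 68.3% ± 35.5 and did not differ from 50% (exact permutation p of 0.188 and 0.227). Averaging by reference allele therefore gave a spread between animals 68.5 and 96.5 times that of counting error, against 0.997 to 1.32 times at SNPs 2 to 4.

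**Figure D1:**
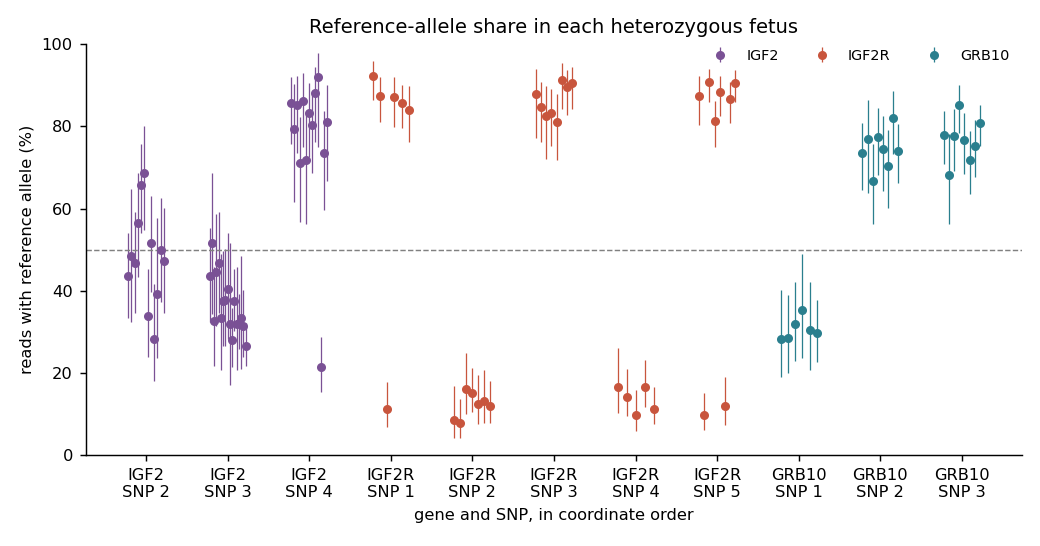
Reference share of the reads in percent (vertical axis) in each heterozygous fetus (points, with 95% Wilson intervals that cover counting error) at the 11 SNPs of the 3 genes that were heterozygous in any animal. The dashed line is an equal share. At IGF2R SNP 1 and SNP 5 the points fall into a group near the top and a few near the bottom, while the GRB10 points at each SNP stay on the same side.

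A lower-allele share under 20% in every heterozygous animal was found at all 5 SNPs of IGF2R and at no other of the 11 SNPs, and it held at 0.896% of the 24106 SNPs. With the added condition that each allele was the higher one in at least 1 animal, 2 SNPs of the whole table were left, or 0.00830%, and they were IGF2R SNP 1 and SNP 5. The 20% limit was chosen with earlier results of these data known. The likelihood ratio test on summed reads gave an unadjusted p under 0.05 at 10 of the 11 SNPs of the 3 genes, against 45.0% of SNPs in the table. SNPs of the same gene are not independent, and the adjoining IGF2 SNPs 3 and 4 were among the 10. The moderated quasi-binomial F test sets the departure from an equal share against the spread between animals. It gave an adjusted p under 0.05 at 9 of the 11, IGF2 SNPs 3 and 4 among them, against 24.5%. Its adjusted p was 2.39e-11 at IGF2R SNP 2, 5.05e-11 at SNP 3 and 1.74e-09 at SNP 4, and 0.0432 at SNP 1 and 0.0817 at SNP 5, where the direction differed between animals (limma variance moderation, Benjamini-Hochberg over all SNPs).

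The alleles that were lower in the same animal form a string over the 5 SNPs, and these strings carry the result for IGF2R. In the 11 heterozygous animals each string below gives the alleles at SNPs 1 to 5 in order. They are not adjoining bases, and each string was assembled by taking the lower alleles of 1 animal together and the higher alleles together, with homozygous positions filled in.
lower in 6 animals (RS902, RS920, RS937, RS940, RS947, RS953): CCCCG
lower in 5 animals (RS903, RS918, RS926, RS929, RS943): TCCCA
higher in 5 animals (RS902, RS918, RS929, RS940, RS953): CTTTA
higher in 2 animals (RS926, RS937): CTTCA
higher in 2 animals (RS903, RS943): CCCCG
higher in 1 animal (RS947): CCTCA
higher in 1 animal (RS920): TCCCA

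Thus 2 strings accounted for the lower copy of IGF2R in all 11 animals, and 5 strings for the higher copy. Both lower strings also occurred as the higher one. RS903, RS943 and RS920 carried the same pair of strings, CCCCG and TCCCA, which differ at SNP 1 and SNP 5 alone. In RS903, TCCCA was the lower copy, with 10 of 130 reads at SNP 1 and 17 against 156 reads of the other copy at SNP 5. RS943 showed the same order, with 18 of 113 reads and 15 of 124. RS920 showed the reverse, with CCCCG at 15 of 133 reads at SNP 1 and 19 of 203 at SNP 5. The same pair of alleles was thus expressed in opposite proportions in different fetuses, each time at SNPs 38666 bp apart. The 95% Wilson intervals at SNP 1 were 86.4% to 95.8% reference reads in RS903, 76.2% to 89.7% in RS943 and 6.95% to 17.8% in RS920.

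The other 7 animals were homozygous at all 5 SNPs, 6 with CCCCG (RS905, RS910, RS917, RS919, RS930, RS933) and RS969 with TCCCA. Every one of the 18 animals therefore carried CCCCG or TCCCA, and the strings with T at SNP 2, SNP 3 or SNP 4 occurred only as the higher copy. In homozygous animals the other allele reached at most 1.49% of reads over 56 values at these SNPs. The mean was 0.183%, beside a mean of 0.467% over all SNPs. The lower-allele reads of heterozygous animals stood above this level. The calls were made from the same reads and so separate the groups by themselves, and nothing was concluded from the gap.

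**Figure D2:**
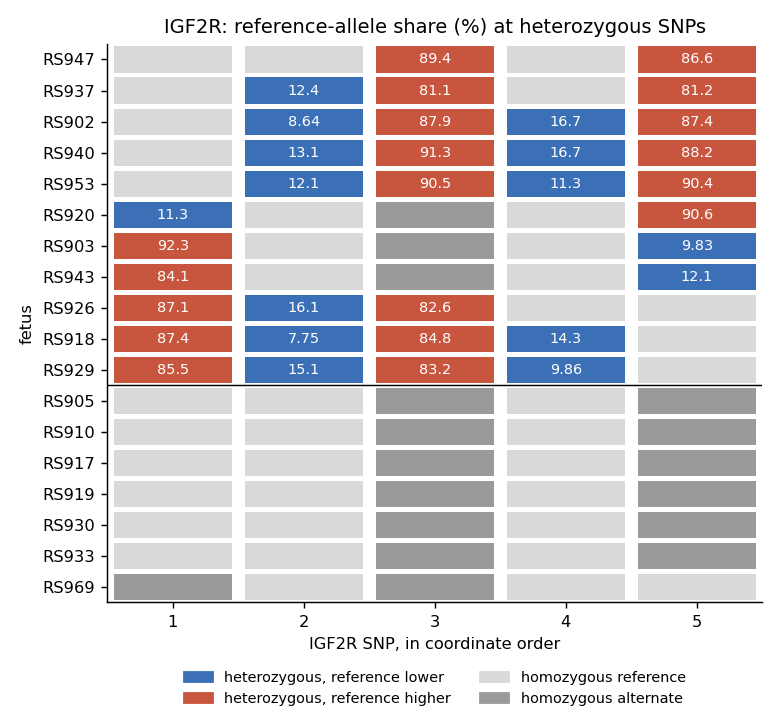
Each of the 18 fetuses (rows) at the 5 SNPs of IGF2R (columns), with the reference share in percent printed where the animal was heterozygous. Blue marks a reference allele that was the lower one, red one that was the higher one, and the greys mark homozygous calls. RS920 has the opposite colours of RS903 and RS943 at SNP 1 and SNP 5.

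The SNPs of 1 animal gave closely similar shares for IGF2R. Within animals the shares at different SNPs varied 0.831 times as much as counting error alone would give, and the range over the SNPs of an animal had a median of 4.46 percentage points. Between animals the variation was 1.79 times that of counting error. RS929 contributed 4 of the 34 values, at 14.5%, 15.1%, 16.8% and 9.86% lower-allele reads, and lay within the range of the other animals.

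GRB10 showed a weaker imbalance, with the same string lower in each animal. The lower allele held 26.3% ± 3.94 of reads (SD, n = 10), from 18.7% in RS917 through a median of 27.7% to 31.8% in RS918. The 22 animal values ranged from 14.8% to 35.3% on 51 to 238 reads, and the Wilson interval of each left out 50%. The SNPs lie on chromosome 4 within 27953 bp and are all synonymous: SNP 1, G/A at position 5265443, SNP 2, C/T at 5280671, and SNP 3, C/T at 5293396.

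At GRB10 SNP 1 the reference allele was lower in all 6 heterozygous animals, from 28.4% in RS903 through a median of 30.03% to 35.3% in RS919 (mean 30.7% ± 2.59, SD, n = 6, exact permutation p = 0.0312, the smallest 6 animals allow). SNP 2 had the reference allele higher in all 8, from 66.7% in RS903 through 74.2% to 82.1% in RS926 (mean 74.4% ± 4.64, SD, n = 8, exact permutation p = 0.0078). SNP 3 had it higher in all 8 as well, from 68.2% in RS902 through 77.1% to 85.2% in RS917 (mean 76.6% ± 5.19, SD, n = 8, exact permutation p = 0.0078). The adjusted p of the quasi-binomial test was 5.06e-06, 2.16e-08 and 8.45e-10 at the SNPs in order (limma). The same allele was the higher one in every heterozygous animal at 6 of the 11 SNPs of the 3 genes, namely IGF2R SNPs 2 to 4 and all SNPs of GRB10, against 13.2% of SNPs in the table.

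Read over SNPs 1 to 3, the strings of the 8 animals heterozygous at 2 or more SNPs of GRB10 were these, again as alleles at separate positions.
lower in all 8 animals: GTT
higher in 4 animals (RS903, RS919, RS920, RS953): ACC
higher in 4 animals (RS902, RS910, RS917, RS926): GCC

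RS905 and RS918 were heterozygous at SNP 1 alone, with GTT lower and ATT higher, and the other 8 animals were called homozygous for GTT. All 18 animals thus carried GTT, and no animal showed it as the higher copy. Homozygous animals had at most 2.35% of reads of the other allele over 32 values. Within an animal the SNPs varied 1.44 times as much as counting error, and in the 4 animals heterozygous at both ends the lower-allele share was higher at SNP 1 than at SNP 3 by 7.62 ± 4.34 percentage points (SD, n = 4, exact permutation p = 0.125, the smallest that 4 animals can give).

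The 2 genes were compared in the 6 animals heterozygous for both. In RS902 the lower allele held 12.5% of IGF2R reads and 27.4% of GRB10 reads. The corresponding values were 8.76% and 28.0% in RS903, 12.5% and 31.8% in RS918, 10.3% and 29.4% in RS920, 15.5% and 21.4% in RS926, and 10.6% and 25.01% in RS953. The groups did not overlap, and the share was higher for GRB10 in 6 of 6 animals, by 15.5 ± 5.21 percentage points (SD, n = 6, exact two-sided permutation p = 0.0312, the smallest that 6 animals allow). RS926, where the genes differed by 5.88 points, stood apart from the other animals, which differed by 14.4 to 19.4 points.

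**Figure D3:**
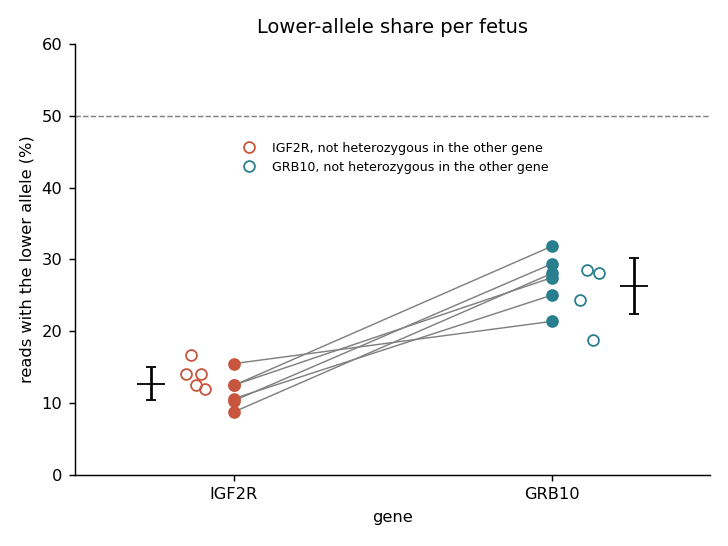
Percentage of reads with the lower allele (vertical axis) for IGF2R and GRB10, averaged over the heterozygous SNPs of each gene in each fetus. Filled points joined by lines are the 6 fetuses heterozygous for both genes, open points the others, crossbars with error bars the mean and SD over all fetuses of a gene, and the dashed line is an equal share. All 6 lines rise from IGF2R to GRB10.

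Because the fetuses shared a sire, the sire's allele could be inferred at some SNPs. An allele homozygous in at least 3 animals, with no animal homozygous for the other allele, was taken as that of the sire. A sire heterozygous at such a SNP was not tested for. The calls came from the same reads, so an animal whose lower allele was missed would count as homozygous, and this was not tested either. The rule gave a sire allele at 12664 SNPs in 4267 genes, and the median share of reads with it was 50.9%, with quartiles of 47.8% and 54.2%. It could be applied to 8 of the 11 SNPs of the 3 genes, 2 of them in IGF2.

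For IGF2R the sire allele held 13.2% ± 2.15 of reads (SD, n = 8, SNPs 2 to 4), from 10.6% through a median of 12.6% to 16.8%, and was below 50% in 8 of 8 animals (exact permutation p = 0.0078, the smallest possible). Without RS929 the mean was 13.1%. Without RS969, the only animal homozygous for T at SNP 1, that SNP passed the rule with C as the sire allele. By the calls of all animals, however, the sire carried both alleles there. The mean then became 32.1% (permutation p = 0.0758). At SNP 2, SNP 3 and SNP 4 the mean sire shares were 12.2%, 13.7% and 13.8%, which were the lowest 3 of the 12664 SNPs. For IGF2R SNP 1 no sire allele could be given, because RS969 was homozygous for T and 11 animals for C. At IGF2R SNP 5, 4 animals were homozygous for A and 6 for G. By these calls a common sire carried both alleles at SNP 1 and at SNP 5. For GRB10 the sire allele held 26.3% ± 3.94 (SD, n = 10), with 10 of 10 animals below 50% (permutation test with 100000 resamples, p = 0.00196), and the means of its SNPs were 30.7%, 25.6% and 23.4%. Since the fetuses shared a sire, the permutation p-values of both genes measure how the same paternal alleles repeated over his offspring. They do not cover other sires.

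A sire share under 35%, a limit chosen after the values were seen, was found at all 6 SNPs of IGF2R and GRB10 that had a sire allele, and at 0.624% of all SNPs with one. SNPs of FBP2 and CAPZA2 were among the latter and came next after those of IGF2R, from 14.9% to 16.3%. SNPs of C1orf167, ABCA3 and UCK1 were also among them, at 24.1%, 25.4% and 25.6%, near those of GRB10. High sire shares were more frequent in the table than low ones, since 557 SNPs, or 4.40%, had a share above 65%. For both IGF2R and GRB10 the lower copy was therefore the one taken as paternal at each SNP where the rule applied. At IGF2R SNPs 2 to 4 the allele taken as paternal was C in every heterozygous animal. For GRB10 it was always that of GTT, which was lower in each of them. In both cases paternal origin and the allele itself cannot be told apart.

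**Figure D4:**
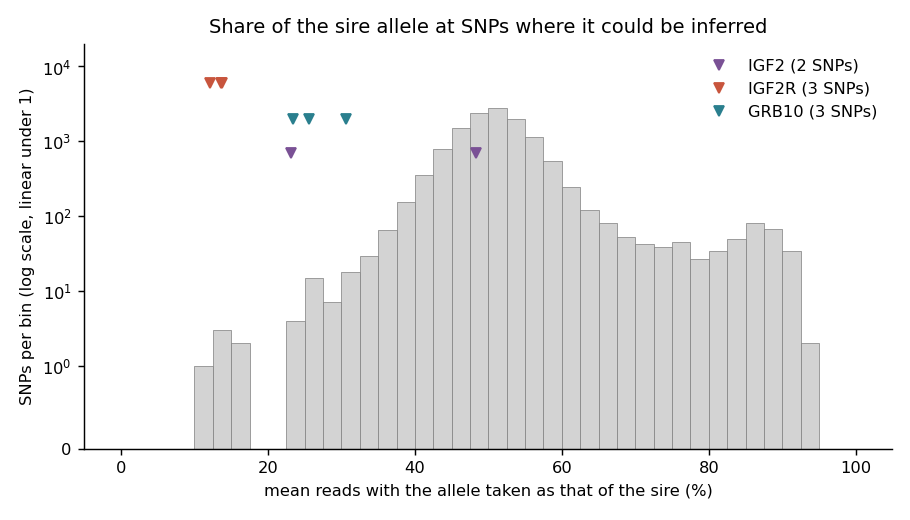
Number of SNPs (vertical axis, log scale above 1) in bins of the mean percentage of reads with the allele taken as that of the sire (horizontal axis), over 12664 SNPs. Triangles mark the SNPs of the 3 genes at their horizontal position, and their height has no meaning. The IGF2R triangles, at 12.2% to 13.8%, lie at the left end of the distribution.

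IGF2 was covered by 4 SNPs, all C/T and all in the 3′ UTR, on chromosome 21 at positions 48680169, 48680501, 48680502 and 48680503. SNPs 2, 3 and 4 are adjoining bases, so nearly the same reads cover them, and they count as 1 site rather than 3. At SNP 1 all 18 animals were called homozygous for the alternate allele, with 3.31% to 7.23% of reads (median 5.23%) carrying the reference allele, above the highest value in homozygotes of IGF2R and GRB10. The lower-allele share of the gene, averaged over heterozygous SNPs, was 32.1% ± 4.41 (SD, n = 17), from 24.7% in RS930 to 39.2% in RS902. Of the 42 animal values, 27 had a Wilson interval that left out 50%.

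Adjoining IGF2 SNPs gave different shares in the same animals. At SNP 2 the reference share was 48.3% ± 11.7 in 12 heterozygous animals, from 28.3% in RS926 through a median of 47.9% to 68.8% in RS918, and did not differ from 50% (permutation test with 100000 resamples, p = 0.624). At SNP 3 it was 36.6% ± 6.87 in 17 animals, from 26.6% in RS953 through 33.3% to 51.7% in RS902 (permutation p = 5e-05). At SNP 4 it was 76.8% ± 17.8 in 13 animals, and 12 of them had the reference allele higher, up to 92.0% in RS929, while RS930 had 21.4% (permutation p = 0.00106). Counting every animal with 10 reads of each allele, whatever its call, brought SNP 4 to 49.6% (permutation p = 0.959). The adjusted p of the quasi-binomial test was 0.756, 5.59e-09 and 0.0148 at SNPs 2, 3 and 4 (limma).

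When reads come from a pair of alleles, adjoining positions in the same reads give the same lower-allele share within counting error. For IGF2 the lower-allele share was 18.9 ± 9.34 percentage points higher at SNP 3 than at SNP 4, in 13 of 13 animals (SD, n = 13, permutation test, p = 0.00018), and 22.7 ± 8.64 points higher at SNP 2 than at SNP 4, in 12 of 12 (SD, n = 12, p = 0.00052). Between SNP 2 and SNP 3 the reference share differed by 9.51 ± 12.8 points (SD, n = 12, permutation p = 0.0254), but the lower-allele share differed by 2.74 ± 10.0 points (permutation p = 0.357), and without RS917 or RS918 the first difference missed the threshold (7.16 to 8.65 points, permutation p = 0.0506). The shares at these positions could therefore not be read as the expression of 2 IGF2 alleles.

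The depth at these positions moved with the calls. In the 12 animals called heterozygous at SNP 2, its reads came to 11.2% to 25.2% of those at SNP 1, with a median of 21.1%. In the 6 animals called homozygous for the reference (RS930, RS933, RS940, RS947, RS953, RS969), they came to 49.7% to 59.1%, with a median of 54.2%, and the groups did not overlap. The call was made from the same reads, so no test was applied to this difference. The alternate share at SNP 4 also separated the groups, at 8% to 28.9% in the 12 animals and 72.7% to 87.0% in the 6, and 5 of these 6 were called homozygous at SNP 4 although 12.95% to 27.3% of their reads had the reference allele. The alternate share at SNP 1 did not separate them, at 92.8% to 96.7% and 93.0% to 96.7%. The part of this difference in depth in the shares was not tested.

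**Figure D5:**
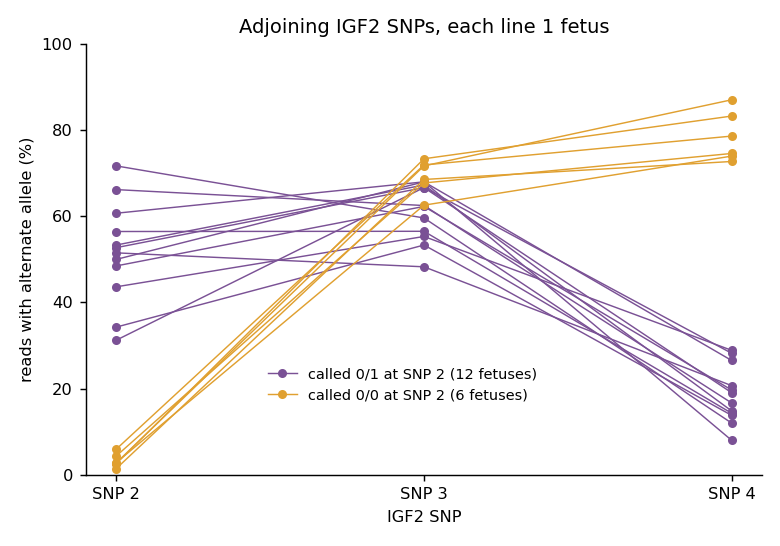
Percentage of reads with the alternate allele (vertical axis) at the adjoining IGF2 SNPs 2, 3 and 4, with each fetus as a line, purple for the 12 called heterozygous at SNP 2 and yellow for the 6 called homozygous for the reference. The groups lie apart at SNP 2 and SNP 4, and come together at SNP 3.

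At IGF2 SNP 4 the sire rule gave the alternate allele, with a mean share of 23.2%, and at SNP 2 the reference allele, with 48.3%. Averaged over both SNPs the sire share was 36.9% ± 14.8 (SD, n = 13, below 50% in 12 of 13 animals, permutation p = 0.0113), and RS930 had 78.6%. Given the unequal shares at adjoining bases, no parental direction was taken from these values.

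The reads behind the shares were fewer at the adjoining IGF2 SNPs than at the SNPs of the other genes. Per 1000000 SNP reads of an animal, the median was 66.0 at IGF2 SNP 1 and 13.5 to 14.8 at SNPs 2 to 4, 20.2 to 41.9 at the SNPs of IGF2R and 20.3 to 27.9 at those of GRB10, beside 15.1 over all SNPs. These are read depths at single positions and not levels of the transcripts, and in whole tissue fewer cells of a type and less RNA per cell cannot be told apart. IGF2R varied least between animals, with a mean over its SNPs of 26.6 in RS905 to 41.4 in RS929, while IGF2 ranged from 19.9 in RS902 to 80.5 in RS953. The tissue's own markers were covered, with 6 of 8 brown adipocyte and 4 of 8 adipocyte markers in the table and ADIPOQ at 4436 on the same scale. Of other cell types, 3 of 4 endothelial markers were present, led by VWF at 108, 1 of 6 skeletal muscle markers (DES, 24.8), 1 of 4 adrenal markers (STAR, 13.2), 1 of 4 blood and immune markers (CD14, 7.07) and 0 of 4 kidney markers. A gene is in the table only if it has a SNP that passed the filter, so a missing marker does not show that its cell type was absent. The part of other cell types in the allele shares was not tested.

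Among other genes of the IGF pathway, single SNPs were as unequal as those of IGF2R, each with the same allele higher in every heterozygous animal. Of a list of 49 such genes, 22 had tested SNPs, and 49 of their 103 SNPs, or 47.6%, had an unadjusted p under 0.05, 31 with more reference and 18 with more alternate reads. The share was close to that of the whole table. Their median lower-allele share was 43.4%, near the 42.9% of all SNPs, and none of the 60 SNPs with a sire allele had a sire share under 35%. A lower-allele share under 20% in every heterozygous animal was found at 2 of the 103 SNPs, beside 0.896% of all SNPs. One, in INSR, the insulin receptor, had a mean of 13.5% in 6 animals and a sire share of 86.5%. The other, in AKT2, had 13.3%. It was called heterozygous in all 18 animals, unlike any SNP of IGF2R or GRB10, so no sire allele could be given. AKT2, a kinase downstream of the insulin and IGF receptors, had the lowest mean lower-allele share of the list, 25.4% over 6 SNPs. TSC2 and TSC1, partners in the complex that restrains mTOR, had 36.2% and 39.9%. GNPTG, a subunit of the enzyme that makes the mannose 6-phosphate tag bound by IGF2R, had 37.9%. FOXO1, a transcription factor held out of the nucleus by insulin signalling, and GAB1, a docking protein of receptor tyrosine kinases, had 40.4% and 40.7%.

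The list of 71 genes known to be imprinted in some mammal gave 19 genes with tested SNPs, and 42 of their 59 SNPs, or 71.2%, had an unadjusted p under 0.05, against 45.0% of all SNPs, and 40 of the 42 had more reference reads. For neither this list nor the pathway list is a direction count over all SNPs given, so nothing was read from the direction. The SNPs also cluster in single genes, with 7 of the 42 in DCN. Of the 28 SNPs with a sire allele, 1 had a sire share under 35%, in NAP1L4, at 34.9%, and the highest reached 90.8%. A lower-allele share under 20% in every heterozygous animal was found at 7 of the 59 SNPs, beside 0.896% of all SNPs, 3 of them in DCN, 2 in BLCAP and 2 in UBE3A. The reference allele was the higher one in each animal at all 7. At the 6 that had a sire allele its share was between 83.1% and 90.8%, whereas it was low for IGF2R and GRB10. An animal whose lower allele was missed would count as homozygous, so these high shares do not show which parental copy was lower. BLCAP, which is known for RNA editing of its transcript, had the lowest mean lower-allele share, 13.6% over 3 SNPs, with more reference than alternate reads at all of them. TFPI2, a protease inhibitor, had 26.9%, and UBE3A, a ubiquitin ligase, had 30.8%. DCN, the proteoglycan decorin, had 33.7%, ATP10A, a phospholipid flippase, 37.4%, and RB1, the retinoblastoma protein, 38.0%. At GNAS, which encodes a stimulatory G protein subunit, the mean was 42.8% over 3 SNPs.

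Genes near the 3 loci were read to see how far the imbalance extended. Within 1 Mb there were 21 other genes with 59 tested SNPs, of which 41, or 69.5%, had an unadjusted p under 0.05 against 45.0% of all SNPs, with a median lower-allele share of 43.4%. Around IGF2R, the 23 SNPs of 6 genes (ACAT2, TCP1, MRPL18, SOD2, SLC22A3 and MAP3K4) had a median lower-allele share of 44.5%, and the sire share at the 6 that had one ran from 39.5% to 57.9%. None of them had a lower-allele share under 20% in every heterozygous animal. SLC22A3, an organic cation transporter that is imprinted in the mouse placenta, had 45.2% over 4 SNPs and a median sire share of 55.0%.

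Near GRB10 the table held FIGNL1 alone, with 37.4% at 1 SNP. Around IGF2, TALDO1, an enzyme of the pentose phosphate pathway, and TSPAN4, a tetraspanin, had lower-allele shares of 12.4% and 15.1%, and the alternate allele was higher at each of their SNPs. Both genes were called heterozygous in all 18 animals at every SNP, so no sire allele could be given, and a SNP heterozygous in every animal differs from those of IGF2R and GRB10, which were heterozygous in 5 to 8. RNH1 had 37.6%, EFCAB4A 38.9% and TSSC4 41.1%.

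The genes most like IGF2R were found by the distance in 2 measures, the median lower-allele share and the percentage of animal values in the more frequent direction, over 3032 genes with 3 or more SNPs heterozygous in at least 5 animals. IGF2R itself had 12.5% and 91.2%, and ATP6AP2, UBP1, RDX and CCBL1 were nearest, with median lower-allele shares of 11.8%, 10.2%, 15.8% and 15.3%. Their median sire shares were 88.8%, 90.5%, 80.4% and 87.0%, against 13.7% for IGF2R. They thus matched it in the size of the imbalance, while the allele taken as that of the sire was the higher one. As the calls came from the same reads, these high shares do not show which parental copy was lower. For GRB10, with 26.3% and 100%, the nearest were DYNLT1, C6orf52, MZF1 and ZNF76, at 25.5%, 27.3%, 27.8% and 24.4%. These 4 genes were heterozygous in up to 18 animals at a SNP, whereas GRB10 was heterozygous in 6 to 8.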

How the data were processed

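RNA-seq reads of 18 fetuses were aligned by the authors to Oar v3.1 with STAR, allowing unique positions only, and SNPs and genotypes were called from the same reads with GATK 3.4-46 (version per the labels). They deposited raw read counts of the reference and alternate allele and a genotype call per animal and SNP. The genotype calls, a code and not a score, were used as deposited. The authors' own chi-square score, p-value and fraction of reference reads per SNP were not used. Columns headed PS910 were matched to the animal titled RS910. AI was tested on all SNPs with a Poisson likelihood ratio test on reads summed over heterozygous animals, and with a quasi-binomial F test moderated by limma 3.58.1 in R 4.3.3, which was tested on simulated data. Shares of animals were tested with sign-flip permutation tests (scipy 1.17.1, numpy 2.4.6), exact under 10 animals and otherwise with 100000 resamples. The genes of each list that are named were the 6 with the lowest mean lower-allele share, and NAP1L4, GNAS, INSR, SLC22A3 and the genes near IGF2R were named in addition after their values were seen. Members, lists and limits were chosen with earlier results of these data known. Sequencing lanes are not given per animal in the sources used here, and no genome sequence was used here. Reads lacked molecular identifiers, so intervals cover counting error only.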

Additional observations from a re-analysis of the deposited data

Results flagged for a closer look

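At IGF2R SNP 1, RS920 had 11.3% reference reads, far from the 84.1% to 92.3% of the other 5 heterozygous animals. In the difference of lower-allele share between GRB10 and IGF2R, RS926 had 5.88 percentage points, apart from the 14.4 to 19.4 points of the other 5. Of 12 groups of 4 to 10 animals examined, these 2 held an animal that far from the rest, and chance gives about 1 in 20.

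At IGF2 SNP 1, where no animal was called heterozygous and no allele share was tested, the median share of reference reads was 5.23%, above the 0.497% to 2.07% that 3 counts would make in each animal. At IGF2 SNP 4 the animals called homozygous for the alternate allele had a median of 25.4% reference reads, where 3 counts would make 1.11% to 2.48%.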

How the results depend on the processing

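No paired analysis was possible because the samples form 1 group, so that no replicate numbers pair samples across groups. The comparisons of genes or SNPs within the same animals are paired by animal. Of 84 values under alternatives other than leaving out an animal, 68 were classed as the same. This meant the same side of the p threshold for tests, a value within the spread for shares without a test, and a limited ratio for counts. Among the 68 were the 3 sire shares without RS929, which were added after seeing the data. IGF2 SNP 2 was also among them, although with 10 reads of each allele it moved from 48.3% to 51.8% reference reads, across 50% (permutation p = 0.73). Counting any animal with 10 reads of each allele turned IGF2 SNP 4 from 76.8% to 49.6% reference reads (permutation p = 0.959) and moved the IGF2 lower-allele share to 26.2%. Summing reads made IGF2R SNPs 1, 4 and 5 pass the threshold, at 74.7%, 13.4% and 71.1%. Females alone left 31.0% at GRB10 SNP 1 in 4 animals, too few for an exact permutation p under 0.125. Allowing 1 homozygote of the other kind brought IGF2R SNP 1, where by the calls the sire carried both alleles, into the sire share. This share became 32.1% (permutation p = 0.0758). Leaving out RS969 did the same, so that without each animal in turn the IGF2R sire share ran from 12.7% to 32.1%.

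Leaving out each animal gave 29.8% to 31.1% at GRB10 SNP 1 and 14.7 to 17.4 points for GRB10 minus IGF2R, where 5 animals cannot pass, and 7.16 to 11.5 points for IGF2 SNP 2 minus SNP 3, which missed the threshold without RS917 or RS918. The adjusted quasi-binomial test called 5923 SNPs in place of 10901, and 26, 25 and 27 in the imprinted, pathway and neighbour lists in place of 42, 49 and 41. A minimum of 30 reads of each allele gave 5667, and a 500 kb window 25. Leaving the most covered 5% of SNPs out of the total raised reads per 1000000 to 54.6, 66.6 and 48.0 for IGF2, IGF2R and GRB10, from 27.1, 32.8 and 23.2. The 5 heterozygous animals at IGF2R SNP 4 were too few for an exact permutation p under 0.0625.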
